A study of Mus musculus with 12 samples.

Results

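The small nucleolar RNAs (snoRNAs) and small Cajal body RNAs (scaRNAs) of mouse small-intestinal epithelium were followed in unselected RNA and in RNA bound by antibodies to double-stranded RNA. They were chosen by type in the GENCODE M21 annotation, by a symbol beginning with Snora, Snord or Scarna, and by the measured counts: a gene had to reach 10 raw counts summed over the 12 libraries. Of 48526 gene rows, 149 carry such a type and symbol, and 40 reached the limit: 12 of 42 H/ACA snoRNAs (Snora), 22 of 98 C/D snoRNAs (Snord) and 6 of 9 scaRNAs. The other 109 fell short of it, 81 of them with 0 counts in every library. Snord123, Snord19 and Snord87 lay just inside the limit with 10 counts each, and Snord13, Snord23 and Snord32a just outside it with 9 each.

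The libraries came from 4 female mice aged 3 months. In 2 animals Kat2a and Kat2b, a pair of genes for related lysine acetyltransferases, were deleted by 100 mg/kg of tamoxifen injected into the abdomen on each of 4 days (DKO). The 2 control animals received the solvent, ethanol in corn oil, so genotype and tamoxifen exposure cannot be told apart. The titles name whole-intestine epithelial cells, while the protocol describes cells loosened with EDTA from the proximal small intestine, taken 2 days after the last injection. Each animal gave an input library, a J2 pulldown and a K1 pulldown. The labels name neither the promoter nor the cell type that drives the deletion.

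SnoRNAs guide chemical modification of other RNAs by base pairing. H/ACA RNAs carry dyskerin and direct pseudouridylation, C/D RNAs carry fibrillarin and direct ribose methylation, and scaRNAs of either kind act on spliceosomal RNAs in Cajal bodies. Most mammalian snoRNAs are cut out of the introns of host genes, and all of them fold on themselves into stems of modest length, whereas J2 and K1 bind RNA duplexes irrespective of their sequence.

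The sequences of 8 members whose pulldown values are described below are shown first. They are the transcript sequences of GENCODE M21, written as DNA from 5′ to 3′, with positions on GRCm38. In the first 6, capitals mark both arms of the longest uninterrupted stem in the structure that RNAfold predicted, which is a computed fold and was not measured. Scarna13 (chr12:105031075-105031349, minus strand) and Scarna6 (chr1:87784556-87784820, plus strand) are scaRNAs with stems of 11 base pairs. Snora23 (chr7:110046364-110046547, plus strand), Snora57 (chr19:8888538-8888685, minus strand), Snora28 (chr12:111540941-111541067, plus strand) and Snora30 (chr7:127527874-127528003, plus strand) are H/ACA snoRNAs with stems of 6, 8, 6 and 8 base pairs. These RNAs moved in different directions in the pulldowns. In the last 2 sequences, capitals mark the letters TGATGA (box C) and CTGA (box D). Snord17 (chr2:144265979-144266216, minus strand) and Snord104 (chr11:106500993-106501062, plus strand) are the C/D snoRNAs with the most counts, and the shared boxes lie near their ends.
Scarna13: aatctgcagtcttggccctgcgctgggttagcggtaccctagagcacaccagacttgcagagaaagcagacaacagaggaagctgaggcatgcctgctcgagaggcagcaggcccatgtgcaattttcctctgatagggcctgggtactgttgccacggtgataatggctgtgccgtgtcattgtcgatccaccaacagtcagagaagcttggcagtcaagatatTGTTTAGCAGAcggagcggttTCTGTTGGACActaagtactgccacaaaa
Scarna6: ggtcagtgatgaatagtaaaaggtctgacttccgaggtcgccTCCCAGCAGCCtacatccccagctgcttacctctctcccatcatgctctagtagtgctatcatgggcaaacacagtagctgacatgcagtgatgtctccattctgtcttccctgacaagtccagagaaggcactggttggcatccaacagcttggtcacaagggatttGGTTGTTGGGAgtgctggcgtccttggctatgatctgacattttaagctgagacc
Snora23: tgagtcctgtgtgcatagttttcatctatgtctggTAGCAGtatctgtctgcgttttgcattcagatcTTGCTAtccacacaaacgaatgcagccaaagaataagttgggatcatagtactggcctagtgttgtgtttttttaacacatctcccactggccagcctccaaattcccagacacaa
Snora57: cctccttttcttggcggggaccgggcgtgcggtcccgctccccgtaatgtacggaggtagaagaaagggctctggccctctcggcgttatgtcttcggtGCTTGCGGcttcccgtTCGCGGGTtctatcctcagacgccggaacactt
Snora28: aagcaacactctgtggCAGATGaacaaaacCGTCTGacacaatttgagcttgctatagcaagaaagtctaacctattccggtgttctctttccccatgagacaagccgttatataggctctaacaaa
Snora30: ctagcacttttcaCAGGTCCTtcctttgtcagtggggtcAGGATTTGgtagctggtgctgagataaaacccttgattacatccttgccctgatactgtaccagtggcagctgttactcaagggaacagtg
Snord17: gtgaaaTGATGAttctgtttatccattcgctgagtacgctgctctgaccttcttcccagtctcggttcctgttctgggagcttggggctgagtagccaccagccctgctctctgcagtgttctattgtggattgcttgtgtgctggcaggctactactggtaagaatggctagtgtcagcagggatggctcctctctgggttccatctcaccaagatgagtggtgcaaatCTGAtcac
Snord104: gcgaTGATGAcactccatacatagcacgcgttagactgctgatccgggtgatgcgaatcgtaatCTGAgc

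The boxes that define each class were looked for in the annotated strand of the members. ACA lay in the last 10 bases of 12 of 12 H/ACA members and of 95.2% of the annotated H/ACA snoRNAs, but of 14.1% of 4151 other small RNA transcripts (miRNA, snRNA and misc_RNA). TGATGA in the first 25 bases together with CTGA in the last 25 was found in 13 of 22 C/D members, in 70.4% of annotated C/D snoRNAs and in 0.0482% of the other small RNAs. In the 6 scaRNAs, 3 held both C/D boxes and 2 held ACA. Predicted longest stems ran from 6 to 13 base pairs in H/ACA members, 4 to 11 in C/D members and 5 to 11 in scaRNAs. A host gene contained 34 of the members, and 6 had none: Scarna2, Snord104, Scarna17, Snora57, Snora17 and Snord118. Snora28, Snora68, Snora2b and Snord19 overlap a retained-intron transcript of their host, and Scarna13 overlaps Mir3069, so in unstranded counts their reads cannot be separated from those genes. Snora30 has a copy, Gm25133, that is 98.5% identical over 130 bases, and 88.6% of Scarna17 is matched by Gm25443, so reads of these 2 may have been split or discarded in counting. Snora21 has such a copy too, Gm23795.

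Counts were unevenly spread over the members. Of 39892 counts in all, scaRNAs held 71.5%, H/ACA snoRNAs 24.8% and C/D snoRNAs 3.61%. Scarna2, a scaRNA transcribed on its own that guides ribose methylation of U2 spliceosomal RNA, and Snora23, an H/ACA snoRNA inside Ipo7, took 88.5% together. Scaled for length, Scarna2 stood at 564 CPM per kb in control input, Snora23 at 279, Snord104 at 44.7 and Snord17 at 43.2. CPM are scaled with TMM factors over the 12 libraries, and unscaled CPM, used for sums, are shares of all gene counts. Longer members had more counts (Pearson r = 0.763 and Spearman rho = 0.363 between length and log10 of the summed counts, over 40 members that share the libraries and their depth). Of 19 members of 100 bases or shorter 3 were abundant enough to be tested, against 11 of 21 longer ones, as the plot of counts by length shows.

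**Figure D1:**
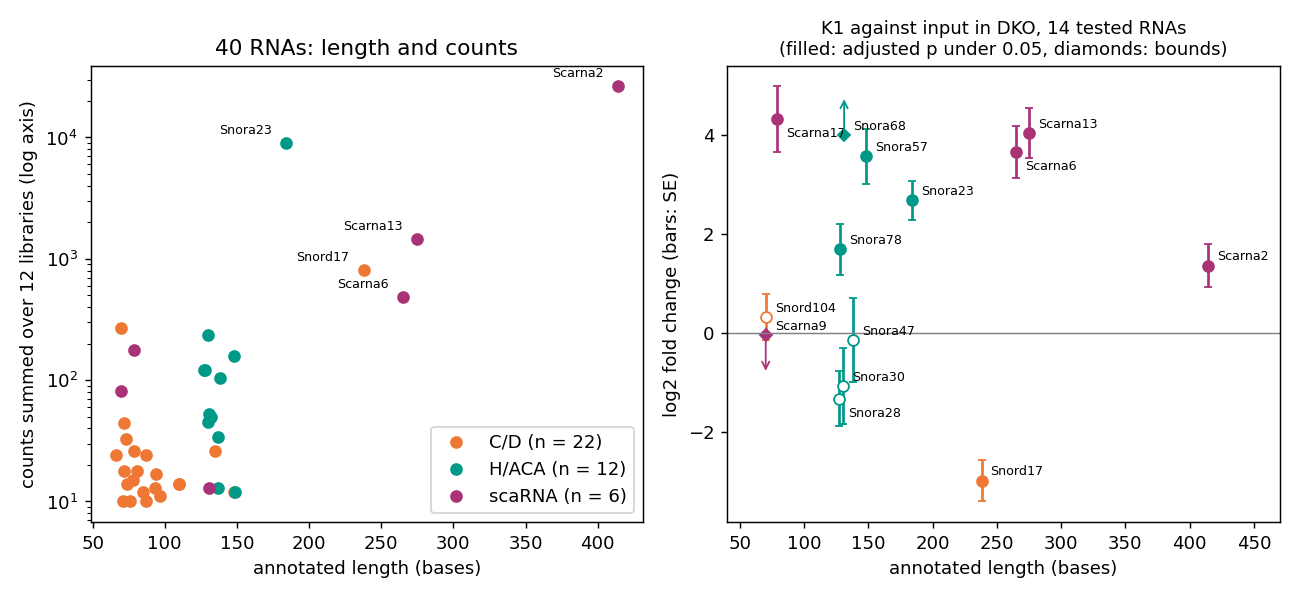
Left, annotated length in bases against counts summed over 12 libraries (log axis) for the 40 RNAs, coloured by class. Scarna2 and Snora23 stand far above the rest. Right, length against the log2 fold change of K1 pulldown over input in DKO for 14 tested RNAs, with the standard error (SE) as bars, bounds as diamonds with arrows, and filled symbols for adjusted p under 0.05. RNAs between 127 and 184 bases lie on both sides of 0.

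The libraries differ in ways that touch the values below. Input libraries held 10307281 to 11474107 counts assigned to genes, and control pulldowns 13308021 to 16139531. DKO pulldowns held 5826361 and 2691285 (J2) and 5559033 and 2220291 (K1), so that 0 counts there allow up to 0.515, 1.11, 0.540 and 1.35 unscaled CPM (3 counts of the total, covering counting error only). The smaller number belonged to the second DKO animal in both cases. Reads aligned to several places were 5.54% to 6.56% of the listed reads in control pulldowns, against 15.8% and 29.5% in DKO J2 and 25.9% and 46.7% in DKO K1. Kat2b had 359 and 343 counts in control input and 118 and 114 in DKO input (log2 fold change -1.51, SE 0.17, edgeR adjusted p 6.32e-04). Kat2a had 222 and 228 against 84 and 148 (-0.88, SE 0.23, edgeR adjusted p 0.0205). Of 9 epithelial markers such as Epcam and Vil1, 9 passed the filter on low counts, and together they took 7360 to 8340 unscaled CPM in the 4 input libraries. Leukocyte markers took 73.3 and 85.8 in control input and 52.9 and 51.0 in DKO input, with 4 of 8 tested called lower and 1 higher, and their part in the input values below was not tested. Markers of stroma and endothelium, 10 in number, summed to 2.91 to 7.91 in input, and 0 to 3 of them had 0 counts in an input library.

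In input, without any pulldown, none of the 10 members abundant enough to be tested was called between DKO and control, while 35.9% of the 15088 genes tested were. At an unadjusted p under 0.05 edgeR had 1, Snora28, and DESeq2 called 0 after adjustment. The largest values were 0.82 for Snora28 (SE 0.34, edgeR adjusted p 0.0986) and -0.54 for Snora47 (SE 0.45). Summed over all 40 members, input held 383 ± 44.5 unscaled CPM in control and 300 ± 9.33 in DKO (SD, n = 2). The ranges did not overlap, and the exact two-sided permutation test gave p = 0.333, the smallest that 2 against 2 libraries allow. Fewer cells of a type and less RNA per cell cannot be told apart in such bulk samples, and all p-values here rest on 2 animals per group. Scarna2 had 2702 and 3501 counts in control input and 2424 and 2338 in DKO input (log2 fold change -0.28, SE 0.15).

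The pulldowns gave another picture. In control tissue the members stood, at the median, below their input in J2, and in DKO tissue most of the abundant scaRNAs and H/ACA snoRNAs stood above it, while the C/D snoRNA Snord17 stood below it in both. Called means an adjusted p under 0.05 in edgeR's quasi-likelihood test with Benjamini-Hochberg adjustment over all genes. The members tested were 12 for J2 and 14 for K1. The other 26 had at most 50 counts over the 12 libraries and got no test. In control J2, 3 of 12 were called, 1 higher and 2 lower, against 29.8% of all genes (15.2% higher and 14.6% lower). In control K1, 4 of 14 were called, 0 higher and 4 lower, against 39.8% (19.7% higher and 20.1% lower). These shares lie near the background. In DKO J2, 8 of 12 were called, 5 higher and 3 lower, against 25.7% of all genes (12.2% higher and 13.4% lower). In DKO K1, 10 of 14 were called, 8 higher and 2 lower, against 35.6% (14.6% higher and 21% lower). The median log2 fold change over the tested members was -1.17 in control J2, -0.42 in control K1, 1.86 in DKO J2 and 1.53 in DKO K1. Over all genes it was -0.07, 0.00, 0.10 and -0.14. Snora57, Scarna17 and Snora68 had at most 9, 7 and 3 counts in each of the 8 libraries other than DKO pulldowns, so they could be tested only because they were high there. Without these 3, 4 of 11 were called higher and 3 lower in DKO J2, and 5 of 11 higher and 2 lower in DKO K1. Those 11 still hold Snora78, which was called higher in both. Its 5, 9, 10 and 15 counts in input and 3 to 7 in control pulldowns would not have passed the filter on low counts. It too was thus tested only through its DKO pulldowns. The medians of those 11 were -0.96 in control J2, -0.59 in control K1, 1.44 in DKO J2 and 0.32 in DKO K1.

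The difference of enrichment between genotypes, tested as an interaction, was called for fewer RNAs. For J2 it was 1 of 12 (1 higher and 0 lower in DKO), with 2.71% of all genes called (0.772% higher and 1.94% lower). For K1 it was 4 of 14 (4 higher and 0 lower), with 5.47% of all genes called (1.37% higher and 4.1% lower). Without Snora57, Scarna17 and Snora68 it was 1 of 11 for J2 and 3 of 11 for K1. The 1 RNA for J2 was Snora23, and the 4 for K1 were Snora57, Scarna6, Scarna13 and Snora23. Both antibodies were compared with the same input libraries, so the J2 and K1 values of an RNA are not independent. Leaving out the second DKO animal left 1 library in each DKO group, so the spread in that fit came from the control groups. Replicates differed less there (chi-square per degree of freedom 14.2 in control J2, 96.0 in DKO J2). Values without a DKO animal are therefore best read as effect sizes. Leaving out either control animal gave 0 calls for both, in a fit that assumes the lone control library to vary like the other groups.

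**Figure D2:**
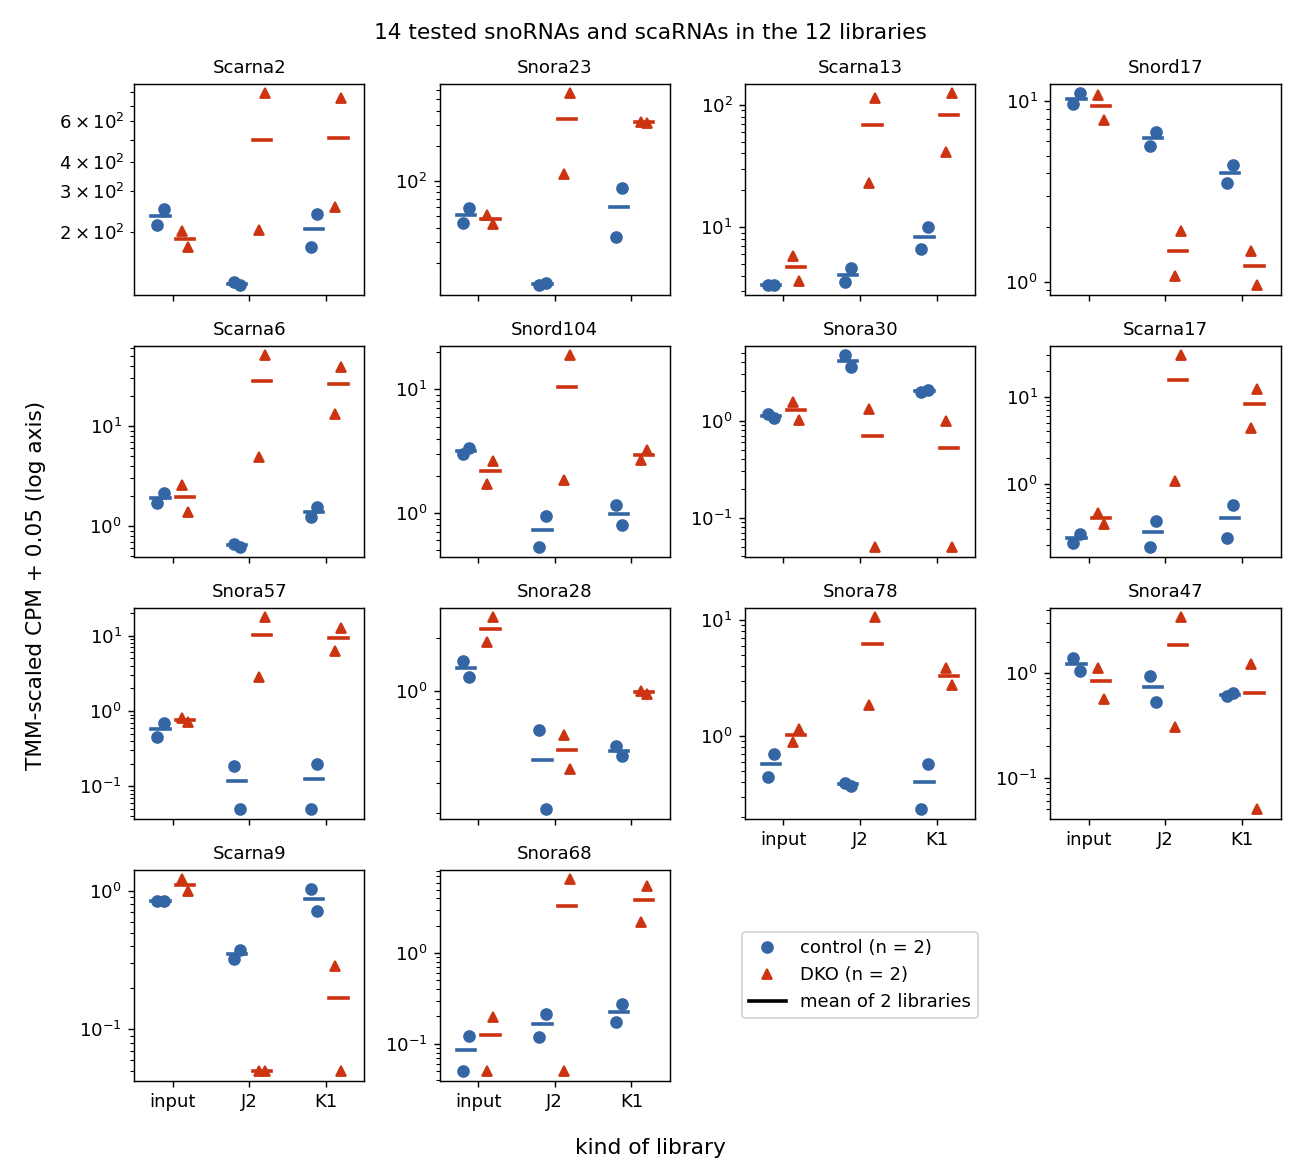
TMM-scaled CPM plus 0.05 (log axis) of the 14 tested RNAs in the 12 libraries, by kind of library. Circles are control and triangles DKO libraries, and short lines are means of 2 libraries. The second DKO animal (right-hand triangle of each pair) is the higher in J2 for most RNAs that rose, with 791 CPM of Scarna2 against 204.

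Among the scaRNAs, Scarna13 rose over input with both antibodies in DKO. It carries H/ACA boxes, lies in the noncoding gene Snhg10, and guides modification of spliceosomal RNA. Its CPM were 3.34 and 3.32 in control input, 3.50 and 4.61 in control J2, and 6.54 and 9.99 in the K1 libraries of the same animals. DKO input had 5.75 and 3.60, DKO J2 22.7 and 113, and DKO K1 40.9 and 124. Both DKO pulldowns of each antibody thus lay above every input and every control pulldown. In DKO its log2 fold change against input was 3.88 in J2 (SE 0.69, edgeR adjusted p 0.00809) and 4.05 in K1 (SE 0.50, adjusted p 4.35e-04). In control K1 the value of 1.22 (SE 0.49, edgeR adjusted p 0.0706) was called with the animal as a block (1.21, adjusted p 0.0216). Of the 8 members called in DKO J2 it was the one that stayed called when either control animal was left out (adjusted p 0.0459 and 0.0469). Without the second DKO animal the values in J2 and K1 were 2.00 and 2.74. The difference between genotypes was called for K1 (2.83, SE 0.69, adjusted p 0.0421) and not for J2 (3.59, SE 0.94, adjusted p 0.0751). Without the second DKO animal the K1 difference was 1.51 (adjusted p 0.0552).

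Scarna6, a scaRNA of Atg16l1, was low in control pulldowns and high in those of DKO. Control CPM were 1.67 and 2.09 in input, 0.618 and 0.567 in J2, and 1.17 and 1.49 in K1. The DKO values were 2.50 and 1.32, 4.84 and 51.2, and 13.3 and 39.4. The groups did not overlap in either pulldown, but the 2 DKO J2 libraries stood far apart. Its log2 fold change in DKO was 3.89 in J2 (SE 0.93, edgeR adjusted p 0.0203) and 3.67 in K1 (SE 0.53, adjusted p 9.39e-04). The J2 call was lost with the animal as a block (3.29, adjusted p 0.0576) and without the second DKO animal (0.98, adjusted p 0.105). For K1 the difference between genotypes was 4.25 (SE 0.77, adjusted p 0.0203), and without the second DKO animal 2.90. For J2 it was 5.54 (SE 1.38, adjusted p 0.0687).

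Scarna2 had 215 and 252 CPM in control input, 122 and 118 in control J2, and 173 and 240 in K1. DKO input had 202 and 172, DKO J2 204 and 791, and DKO K1 256 and 757. The first DKO animal thus lay close to its input (log2 pulldown minus input 0.01 in J2 and 0.34 in K1), and the second far above it (2.20 and 2.14). The K1 value in DKO was called (1.36, SE 0.43, edgeR adjusted p 0.0322) and rested on the second animal, since without it the value was 0.26 (adjusted p 0.421). In J2 the value of 1.44 (SE 0.56, adjusted p 0.0931) and the difference of 2.40 (SE 0.79, adjusted p 0.117) were not called.

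Scarna17 and Scarna9, shorter C/D scaRNAs, went opposite ways. Scarna17 had 2 to 5 counts per input library, 2 and 4 in the control J2 pair, and 3 and 7 in the control K1 pair. Its counts in DKO were 4 and 97 in J2 and 18 and 27 in K1. The 2 J2 libraries thus stood far apart. In K1 it was called in DKO (log2 fold change 4.33, SE 0.66, edgeR adjusted p 0.00125), and it was not tested for J2. Scarna9, chosen for mention after its values were seen, is a guide for U2 spliceosomal RNA. It had 10 to 14 counts in each input library and 16 and 9 in control K1, but 0 and 0 in DKO J2 and 1 and 0 in DKO K1. Given the depth of those libraries it was at least 1.26-fold lower than input in DKO J2 (edgeR adjusted p 0.0190) and at least 1.03-fold lower in DKO K1 (adjusted p 0.0485). Neither call held with the animal as a block (adjusted p 0.0554 and 0.0804). The sixth scaRNA member, Scarna8, had 13 counts in all, 6 of them in the J2 library of the second DKO animal.

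**Figure D3:**
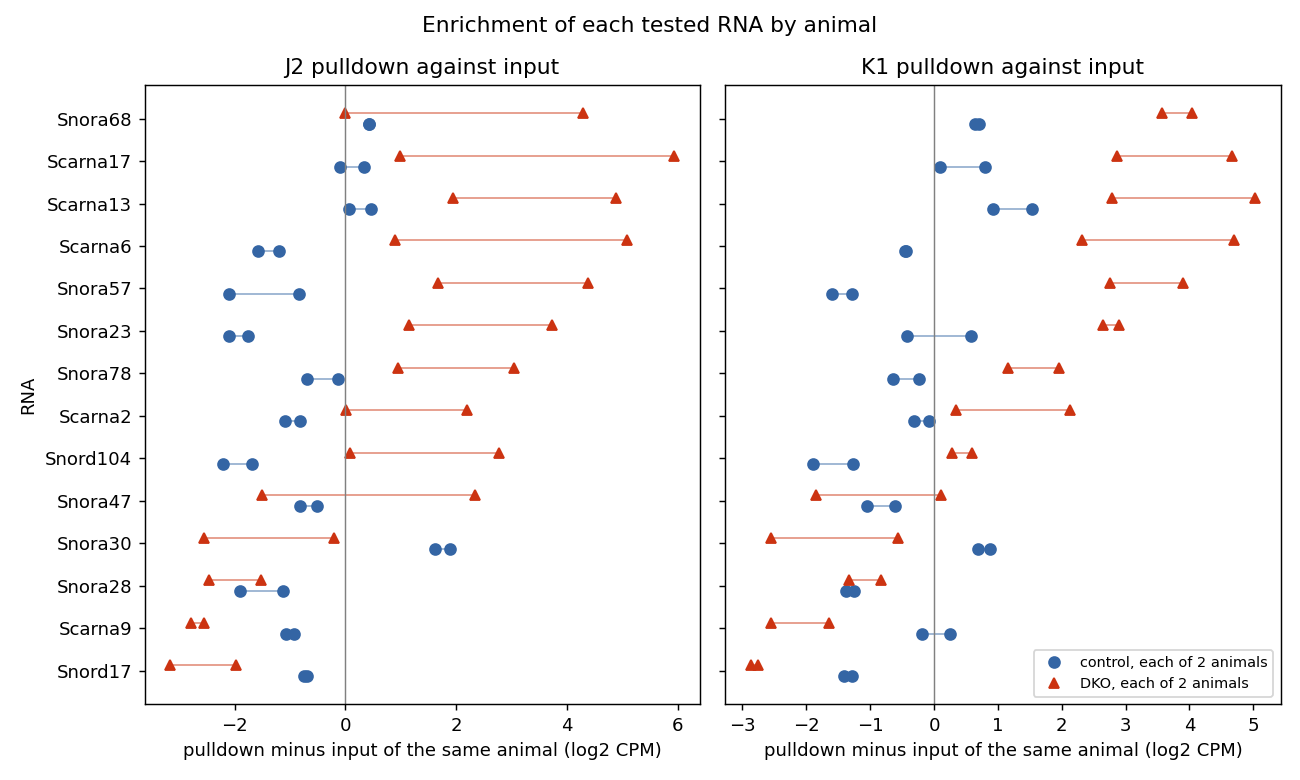
Pulldown minus input of the same animal in log2 CPM (prior count 2) for the 14 tested RNAs, with J2 on the left and K1 on the right. Circles are the 2 control and triangles the 2 DKO animals, joined by a line. For Scarna13 the DKO animals lie at 1.94 and 4.89 in J2 and the control animals at 0.06 and 0.45, while for Snord17 the DKO animals lie to the left of the control animals.

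Among H/ACA snoRNAs, Snora23 was the one whose difference between genotypes was called for both antibodies. Its CPM in control were 44.0 and 58.6 in input, 12.8 and 13.4 in J2, and 32.9 and 87.8 in K1. The DKO values were 51.4 and 42.6, 114 and 565, and 322 and 317. It was thus below input in both control J2 libraries and above input in each DKO pulldown. Against input the log2 fold change was -1.96 in control J2 (SE 0.63, edgeR adjusted p 0.0483), 2.89 in DKO J2 (SE 0.65, adjusted p 0.0169) and 2.69 in DKO K1 (SE 0.39, adjusted p 0.00102). In control K1 it was 0.14 (SE 0.37, adjusted p 0.790), and its direction depended on the control animal. The difference between genotypes was 4.85 for J2 (SE 0.91, adjusted p 0.0424) and 2.54 for K1 (SE 0.53, adjusted p 0.0290). With the animal as a block the J2 difference was 4.42 and no longer called (adjusted p 0.0741). Without the second DKO animal it was 3.14 for J2 and 2.41 for K1.

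Snora57, which has no host gene in the annotation, was almost absent from control pulldowns. Its counts were 5 and 9 in control input, 2 and 0 in control J2, and 0 and 2 in K1. The DKO animals had 9 and 9 in input, 11 and 57 in J2, and 26 and 28 in K1, from libraries of smaller depth. In DKO its log2 fold change against input was 3.84 in J2 (SE 0.84, edgeR adjusted p 0.0155) and 3.58 in K1 (SE 0.56, adjusted p 0.00141). Without the second DKO animal the J2 value was 1.91 (adjusted p 0.0900). In control K1 it was at least 2.56-fold lower than input (adjusted p 0.0428). The difference between genotypes was at least 34.2-fold for K1 (adjusted p 0.0194) and at least 33.7-fold for J2, where it was not called (adjusted p 0.0687). These bounds set the control pulldowns at 3 counts per library and take the other means without their spread. The fitted J2 difference was 4.57 on the log2 scale without the second DKO animal, below the J2 bound of 5.07.

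Snora78 and Snora68 were also higher in DKO pulldowns, and are named here after their values were seen. Both passed the filter on low counts only through their DKO pulldowns. Snora78, held in Snhg9, had 5, 9, 10 and 15 counts in input and 3 to 7 in control pulldowns. It had 7 and 34 counts in DKO J2 and 16 and 6 in DKO K1. Its log2 fold change in DKO was 2.63 in J2 (SE 0.72, edgeR adjusted p 0.0316) and 1.69 in K1 (SE 0.52, adjusted p 0.0295). Without the second DKO animal neither was called (1.11, adjusted p 0.248, and 2.09, adjusted p 0.0520). Snora68 had 0 to 2 counts in the input libraries and 9 and 12 in DKO K1, at least 16.1-fold higher (adjusted p 0.00261), and 0 and 21 counts in DKO J2.

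Snora28 and Snora30 behaved otherwise. Snora28 had 18 and 16 counts in control input and 22 and 35 in DKO input, against 8 and 2 in control J2 and 7 and 5 in control K1. It was lower than input in control J2 (log2 fold change -1.78, SE 0.55, edgeR adjusted p 0.0428; with the animal as a block adjusted p 0.0562) and in control K1 (-1.72, SE 0.47, adjusted p 0.0151). In DKO J2, with 2 and 1 counts, it was at least 2.61-fold lower (adjusted p 0.0451), and that call was lost with the animal as a block (adjusted p 0.0700) and without the second DKO animal (adjusted p 0.178). In DKO K1, with 4 and 2 counts, the value of -1.32 did not pass (SE 0.55, adjusted p 0.0855). The difference between genotypes was -0.57 for J2 (SE 1.01) and 0.40 for K1 (SE 0.74), both uncalled. Snora30 was the 1 member called higher in a control pulldown in the main fits, which kept all animals and had no block for them. It had 14 and 14 counts in control input and 68 and 43 in control J2 (1.94, SE 0.55, adjusted p 0.0313). In DKO it had 18 and 13 counts in input, 5 and 0 in J2 and 4 and 0 in K1, and neither pulldown was called (-0.79, SE 0.84, and -1.07, SE 0.77). Snora47, also named after its values were seen, was not called in any comparison, and its 2 DKO animals lay on opposite sides of input in J2 (-1.50 and 2.34).

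Neither of the 2 tested C/D snoRNAs was called higher in a pulldown. Snord17, a guide for 28S ribosomal RNA inside Snx5, had 9.55 and 11 CPM in control input, 5.63 and 6.72 in control J2, and 3.45 and 4.40 in K1. For DKO its CPM were 10.8 and 7.87 in input but 1.02 and 1.85 in J2 and 1.43 and 0.906 in K1, from 4, 6, 6 and 2 counts. Every pulldown library lay below every input library. Its log2 fold change was -1.47 in control K1 (SE 0.28, edgeR adjusted p 0.00250), -2.69 in DKO J2 (SE 0.42, adjusted p 0.00573) and -2.98 in DKO K1 (SE 0.42, adjusted p 8.58e-04). In control J2 the value of -0.73 was not called (SE 0.32, adjusted p 0.117). The difference between genotypes, -1.95 for J2 and -1.51 for K1, did not pass (SE 0.54 and 0.53, adjusted p 0.0824 and 0.124).

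Snord104, which also guides methylation of 28S ribosomal RNA, had 2.94 and 3.32 CPM in control input, 0.480 and 0.890 in control J2, and 1.11 and 0.745 in K1. The DKO libraries had 1.67 and 2.57 in input, 1.78 and 18.8 in J2, and 2.61 and 3.17 in K1. It was lower than input in control K1 (log2 fold change -1.80, SE 0.40, edgeR adjusted p 0.00551) and lower, without passing the test, in control J2 (-2.19, SE 0.92, adjusted p 0.106). In DKO it was not called in J2 (2.27, SE 0.84, adjusted p 0.0791) or K1 (0.32, SE 0.46, adjusted p 0.613). The other 20 C/D members had too few counts for a test. Snord118 (U8), needed for processing of ribosomal RNA, had 5, 1, 8 and 5 counts in the input libraries and at most 3 in any pulldown. Snora62, an H/ACA snoRNA of the same fixed list, had 12 counts in all. Of 15 ribosomal RNA processing snoRNAs in the files these were the 2 members, with 47 counts over the whole list. The 4 snoRNAs of Rpl13a had 10 counts together and 18 snoRNAs of imprinted clusters had 1, and none of these became a member.

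Of the 26 untested members, 22 had at most 3 counts in every DKO pulldown and 13 had 0 in all of them. Together they took 8.12 ± 0.229 unscaled CPM in control input and 6.32 ± 0.00889 in DKO input (SD, n = 2). In J2 the sum was 2.54 and 1.58 for control and 1.20 and 20.8 for DKO, and in K1 2.11 and 2.07 for control and 2.34 and 6.31 for DKO. The J2 library of the second DKO animal stood apart here too. Of its 56 counts 25 were Snora31, which had 2 in the first animal, and 10 were Snora17, which had 1. Both are H/ACA snoRNAs, and both are named after their values were seen.

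Summed over classes, the higher levels in DKO pulldowns were those of scaRNAs and H/ACA snoRNAs. Over the 12 libraries a single RNA held most counts of each class. Scarna2 held 26331 of 28537 scaRNA counts, Snora23 8964 of 9913 H/ACA counts, and Snord17 807 of 1442 C/D counts. The sums thus do not describe each member, and Snora28, Snora30, Snora47 and Scarna9 were not called higher in a DKO pulldown. H/ACA members took 18.0 ± 1.49 unscaled CPM of control J2 and 411 ± 466 of DKO J2, and 62.4 ± 36.4 and 299 ± 60.9 in K1 (SD, n = 2). For scaRNAs the sums were 118 ± 3.10 and 673 ± 730 in J2, and 212 ± 41.4 and 583 ± 488 in K1, where the libraries overlapped. C/D members took 8.15 ± 0.480 and 16.3 ± 19.6 in J2, with overlap, and 6.40 ± 0.116 and 4.37 ± 0.441 in K1, lower in both DKO libraries. Over all members the sum went from 144 ± 4.11 to 1100 ± 1215 in J2 and from 281 ± 78.0 to 887 ± 548 in K1. In J2 the DKO libraries were 241 and 1959, so that the size of the difference rested on the second animal. Neither the J2 nor the K1 sum could pass a test of 2 against 2 libraries (exact two-sided permutation p = 0.333). Without Scarna2 and Snora23 the remaining 38 members went from 18.6 ± 0.432 to 176 ± 211 in J2 and from 20.8 ± 2.80 to 134 ± 103 in K1. The 2 DKO libraries stood at 26.8 and 325 in J2 and at 61.3 and 207 in K1.

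**Figure D4:**
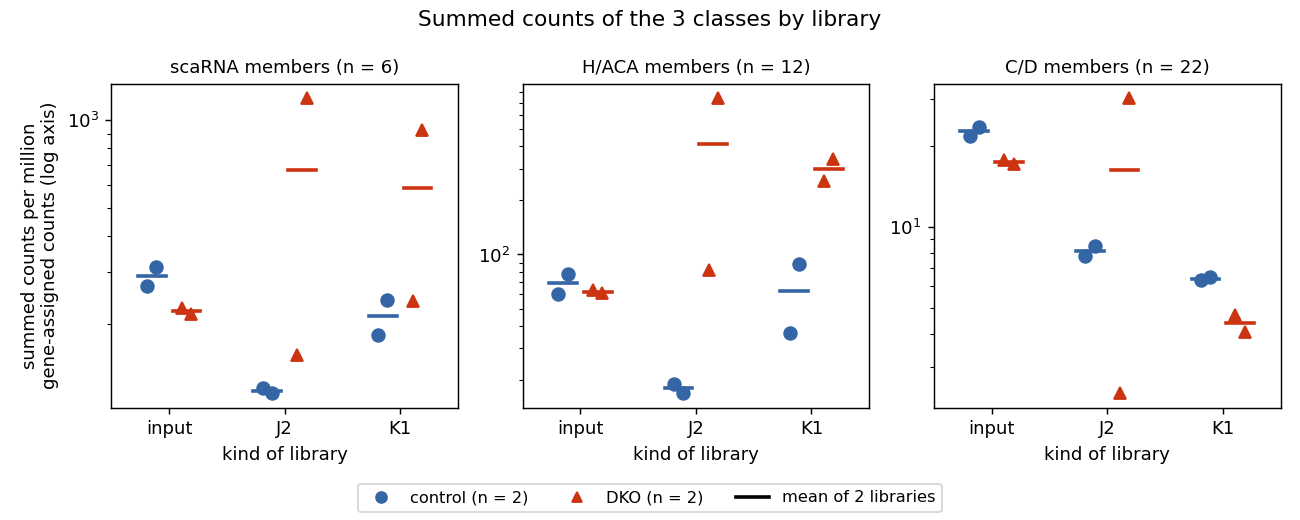
Summed unscaled CPM, the share of gene-assigned counts (log axis), of the scaRNA, H/ACA and C/D members in the 12 libraries. Circles are control and triangles DKO libraries, and short lines are means of 2 libraries. The C/D sums in the DKO K1 libraries lie below those of control, while the H/ACA sums lie above them for both antibodies.

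Host genes were set beside the RNAs they hold, since an unspliced or intron-retaining host transcript would carry the same sequence. Of the tested members 8 have a host that was itself tested. Ipo7, the host of Snora23, had log2 fold changes of -0.50 (SE 0.26) in DKO J2 and -0.02 (SE 0.22) in DKO K1, where Snora23 stood at 2.89 and 2.69. Atg16l1, the host of Scarna6, stood at 0.66 (SE 0.27) and -0.34 (SE 0.24) beside 3.89 and 3.67. Neither host was called in these comparisons. Snx5 was higher in all 4 pulldowns, by 1.91 and 1.50 in J2 (control and DKO) and 0.84 and 0.87 in K1 (edgeR adjusted p at most 0.0152), while Snord17 was below input in each. Srcap and its Snora30 were both higher in control J2 (1.26, SE 0.25, adjusted p 0.00834, and 1.94). The counts cover whole genes, so they do not tell intron from exon reads of a host.

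**Figure D5:**
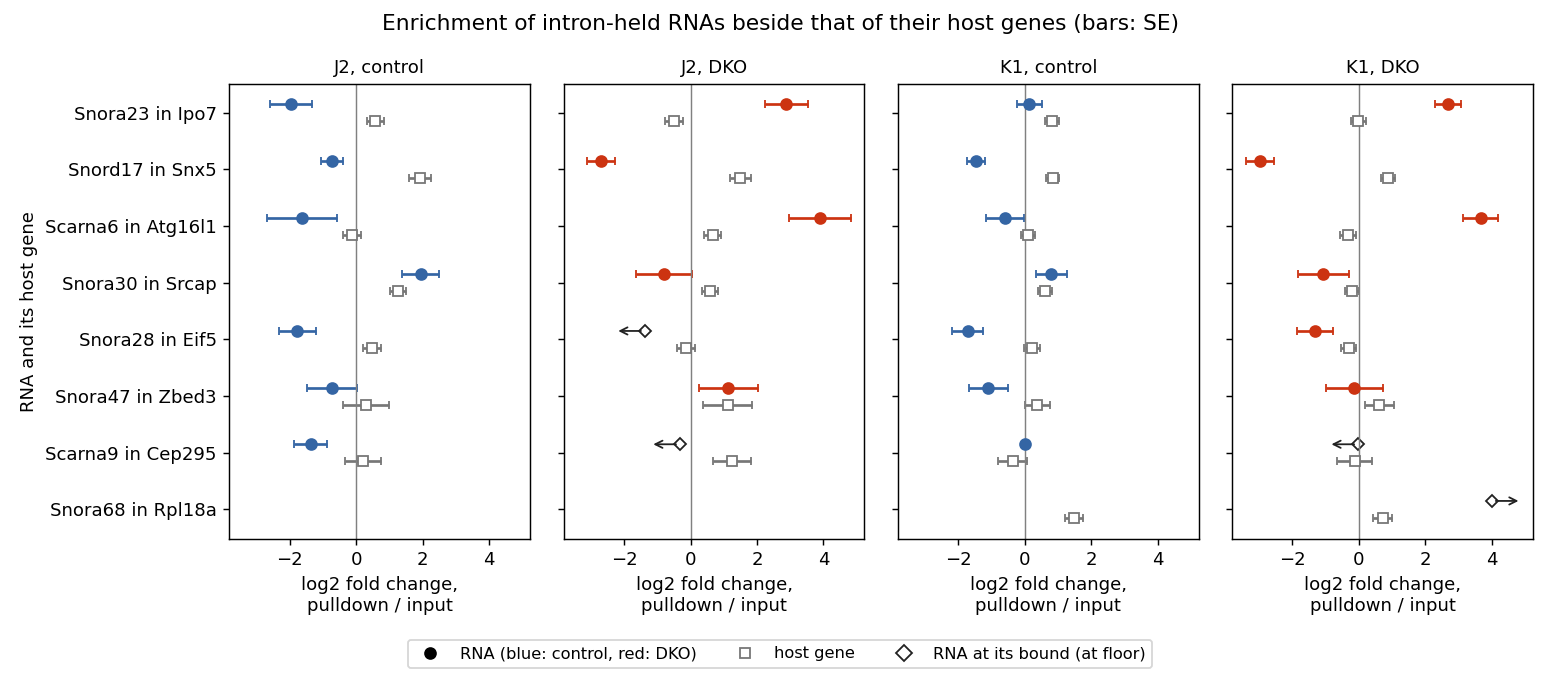
Log2 fold change of pulldown over input for 8 RNAs and their host genes, in the 4 pulldown comparisons. Circles are the RNAs (blue control, red DKO), squares the host genes, bars SE, and diamonds with arrows bounds for RNAs at the floor. No symbol is drawn for Snora68 where both sides were at the floor or it was not tested, and no bar for Scarna9 in control K1. Snora23 and Scarna6 lie to the right of their hosts in DKO, and Snord17 lies to the left of Snx5 in each panel.

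The messages of proteins that work with these RNAs were compared in input too. Of 4 C/D core proteins (fibrillarin, Nop56, Nop58, Snu13) and 4 H/ACA core proteins (dyskerin, Gar1, Nhp2, Nop10), none was called between DKO and control by edgeR. The value nearest to a call was Gar1 (-0.65, SE 0.22, adjusted p 0.0547). Among 16 assembly and maturation factors 1 was called higher, as was 1 of 6 proteins of the U3 particle. In DKO pulldowns 7 of 16 assembly factors were called higher in J2 and 9 of 16 in K1. Of all genes, 12.2% and 14.6% were. In control pulldowns 1 of 16 was called higher in J2 and 4 of 16 in K1, beside 15.2% and 19.7% of all genes. The difference between genotypes was called for 1 of the 16 with J2 and 0 with K1. Of the 8 core proteins, Nop56 and Gar1 were called higher in DKO J2, Nop56, Gar1 and Nhp2 higher in DKO K1, and Snu13 lower in DKO K1 (-1.27, SE 0.40, adjusted p 0.0320). Nop56 mRNA, which holds snoRNAs in its introns, was higher than input in DKO J2 (3.33, SE 0.73, adjusted p 0.0156) and DKO K1 (2.46, SE 0.43, adjusted p 0.00238). The difference between genotypes was called for K1 (2.39, SE 0.58, adjusted p 0.0435) but not for J2 (3.82, SE 0.98, adjusted p 0.0735). For Gar1 it was called for J2 (2.65, SE 0.55, adjusted p 0.0489) but not for K1 (1.10, SE 0.58, adjusted p 0.284).

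Other measures moved with the rise in DKO pulldowns, and their part in it was not tested. Of 7 tested small structured RNAs that are no snoRNAs, 6 were called higher in DKO J2 (median log2 fold change 3.02) and 6 in DKO K1 (median 3.71). Among them Rmrp, the RNA of the mitochondrial RNA processing ribonuclease, stood at 5.12 and 5.22, and Terc, the telomerase RNA with an H/ACA end, at 3.02 and 2.81. The 9 RNAs of that list summed to 6601 and 8194 unscaled CPM in control J2 and to 11179 and 16521 in control K1. In DKO they summed to 36735 and 89965 in J2 and to 70108 and 64529 in K1. Nuclear long RNAs such as Malat1 and Neat1 were not raised over input in DKO in the same way. Of 5 tested, 1 was called higher and 2 lower in DKO J2 (median 0.19, with 3 of 5 positive). In DKO K1, 0 were called higher and 2 lower (median -0.64, with 1 of 5 positive). In control, 2 were called lower in J2 and 4 in K1 (medians -1.55 and -3.30). Their difference between genotypes was positive for 5 of 5 with each antibody (medians 1.05 for J2 and 1.76 for K1). It was called higher in DKO for 0 with J2 and 1 with K1. They summed to 4354 in both control inputs and 8185 and 6765 in DKO input, against 2408 and 10850 in DKO J2. Markers of stroma and endothelium reached 118 and 43.1 unscaled CPM in DKO J2 and 158 and 80.6 in DKO K1, where the control pulldowns had 3.97 and 20.4 with J2 and 3.72 and 39.8 with K1. Of their 5 tested genes 4 were called higher in DKO J2 and 3 in DKO K1, with Col1a1 at 397 and 42 counts in DKO J2, while Cdh5 and Kdr were at 0 in both DKO J2 libraries. The collagens took most of these counts, and the sum was higher in the first DKO animal. Pecam1, with 10 and 37 counts in DKO J2, was higher in the second. No isotype control library was used here.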

How the data were processed

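Counts were the deposited values: whole-number read counts per gene, made by the authors without using strand, in 1 file per library, per the labels. Per the submitters' processing notes, STAR 2.7.10b, SAMtools 1.17, UMI-tools 1.1.4 and HTSeq 2.0.2 were among the tools and mm10 and GRCm38.p4 among the builds, with no order or role given. Library preparation used random hexamers, removal of ribosomal RNA and molecular identifiers, with read pairs of 150 bp, per the labels' protocols. Such libraries may hold few whole RNAs as short as many snoRNAs. The closing rows of each file (no feature, ambiguous, not unique) were left out of library sizes, and reads assigned to no gene were 6.76% to 27.0% of those listed.

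Of 48526 gene identifiers 48058 matched GENCODE M21 (GRCm38). The test was the quasi-likelihood test of edgeR 4.0.16 (R 4.3.3) with TMM scaling, a minimum count of 10 in filterByExpr, and Benjamini-Hochberg adjustment over all genes of the fit. For each antibody a fit of 8 libraries (4 residual degrees of freedom) gave pulldown against input in each genotype and their difference, and a fit of the 4 input libraries (2 residual degrees of freedom) gave DKO against control. SE is the fold change divided by the root of the F statistic. CPM used TMM factors over 12 libraries. A group with at most 3 counts in each library was at the floor, and its fold is a lower bound against 3 counts per library. Such a bound leaves out the spread of the other groups. Structures were predicted with RNAfold 2.7.2, and copies were found with blastn 2.17.0+ (identity of at least 97%). The test was tried on simulated counts with known changes and the same spread in all groups. That trial does not cover the wider spread between replicates of DKO pulldowns. Alternatives were DESeq2 1.42.0, other scaling, filters, thinning, a single fit, a block for the animal, and leaving out each animal.

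Input and pulldown libraries with the same number came from the same animal, per the labels' descriptions. Their deviations from the group means correlated at 0.318 and 0.339 in control and 0.272 and 0.244 in DKO (J2 and K1, across genes, which are not independent replicates), so a fit with the animal as a block was made. Replicates differed beyond sampling noise (chi-square per degree of freedom 11.0 to 96.0). The members and gene lists were chosen with earlier results of these data known. RNAs named were the called ones with the largest changes, a mean of at least 20 counts and no overlap, the 10 with the most counts, fixed lists, and those at the limit of 10 counts. Others, host genes and proteins among them, are named after their values were seen.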

Additional observations from a re-analysis of the deposited data

Results flagged for a closer look

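The enrichment over input differed between DKO and control by the interaction test of edgeR for 4 RNAs, with values on the log2 scale. Snora23 differed by 4.85 for J2 and 2.54 for K1, and in both DKO animals its pulldown lay further above input than in either control animal. Scarna13 differed by 2.83 and Scarna6 by 4.25, both for K1. Snora57 had a fitted difference of 6.41 for K1, where the control pulldowns held 0 and 2 counts, so that its fold is a bound of at least 34.2-fold. It had at most 9 counts in each of the 8 libraries other than DKO pulldowns, and was tested only because it was high there. Leaving out either control animal ended each of these 5 calls, and leaving out the second DKO animal ended those of Snora23 and Scarna13 for K1.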

How the results depend on the processing

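Of 88 tested values of single RNAs 30 were called. The same call was kept for 29 of them with DESeq2's size factors, 28 with DESeq2, 27 with a filter of 10 summed counts, 29 with TMM computed without mitochondrial genes, 23 without TMM and 21 in a fit of all 12 libraries, and 0 changed sign under these. Thinned to 2220291 counts per library, 13 of 19 still tested were kept. Members called for J2 in control fell from 3 to 0 when thinned, and in DKO from 8 to 4. For the J2 difference the count of 1 became 0 without TMM, 7 with DESeq2 and 4 in the fit of 12 libraries. For K1 in control the 4 became 11 with the filter of 10 summed counts, 0 when thinned and 2 in the fit of 12 libraries. That filter admits members too low for the main fits, and thinning leaves fewer to test. These counts are thus not out of the same members. For the K1 difference the 4 became 1 when thinned and 0 in the fit of 12 libraries. In input, no TMM gave 1. Fits without 1 animal did not test the same members either. Their highest count of calls for DKO J2, given next, exceeds the 12 members tested for J2 in the main fits. The ranges of calls from these fits therefore cannot be compared with the counts of the main fits. Leaving out 1 animal at a time gave 0 to 9 calls for control J2, 1 to 13 for DKO J2, 0 to 12 for the J2 difference, 0 to 6 for control K1, 0 to 7 for the K1 difference and 0 to 1 for input. Without control replicate 1 or 2, 8 of the 30 calls were kept each time, without DKO replicate 1 it was 27 and without DKO replicate 2 it was 21. With the replicate block for the animal, called members went from 8 to 5 in DKO J2 and from 1 to 0 for the J2 difference, 24 of the 30 calls were kept, and beside those given with the results no call changed but that of Scarna13 in control K1, which passed (1.21). Control and DKO animals share only a number (correlation of deviations 0.03).

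Values that changed sign were small or had few counts, and the cause was not tested. Scarna13 in control J2 was -0.091 without TMM and -0.46 when thinned. Snora23 in control K1 was -0.094 without TMM and -0.034 without mitochondrial genes in TMM, and -0.47 to 0.49 when 1 animal was left out. Scarna9 in control K1 was -0.12 with DESeq2's size factors, -0.23 without TMM, -0.13 with DESeq2, -0.17 without mitochondrial genes, -0.025 with the replicate block, and -0.33 to 0.25 with 1 animal left out. Snord104 in DKO K1 was -0.029 without TMM, Snord17 in input 0.055 when thinned, and Scarna6 in input -0.10 without TMM. Leaving out 1 animal moved Snora47 between -2.02 and 2.59 in DKO J2, -1.30 and 3.44 in the J2 difference, -5.73 and 0.045 in DKO K1, and -4.62 and 1.14 in the K1 difference. It moved Snora28 between -1.23 and 0.36 in the J2 difference. In input it moved Snora23 between -0.29 and 0.12, Snord17 between -0.34 and 0.10, Scarna6 between -0.46 and 0.44, and Snora30 between -0.10 and 0.53. Too few counts for a test were found for 20 of 22 C/D snoRNAs, 5 of 12 H/ACA snoRNAs and 1 of 6 scaRNAs.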
